A study of Mus musculus with 9 samples.

Results

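The genes described here are 44 genes whose products copy DNA or supply its building blocks, in bone marrow-derived macrophages (BMDMs). They were chosen by symbol, as known parts of the replication machinery, and not by their measured values. Earlier results of these data were, however, known when they were chosen. All 44 were found, each as 1 entry, among the 55335 genes of the deposited table, and all 44 were among the 11657 genes tested. BMDMs are macrophages grown from mouse bone marrow cells with the growth factor M-CSF, here from wild-type male C57BL/6 mice of 4 to 6 weeks. The M+AnxA5 group received LPS, a bacterial ligand of TLR4, at 1 µg/mL and IFN-γ, a lymphocyte cytokine, at 30 ng/mL together with human recombinant Annexin A5 (AnxA5), a protein that binds phosphatidylserine. The Model group received LPS and IFN-γ alone at the same doses, and the Control group received medium. All 3 groups were treated for 6 hours, with 3 libraries each, and the comparisons ask what inflammatory stimulation did to these genes and whether AnxA5 altered it.

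As background, a cell that is to divide loads the MCM helicase on replication origins in G1 phase, a step called licensing. In S phase CDC45 and GINS switch the helicase on, RPA coats the opened strands, and polymerases copy them behind the sliding clamp PCNA. Ribonucleotide reductase and partner enzymes make the deoxynucleotides (dNTPs). E2F transcription factors, held back by RB family proteins until late G1, switch on many of these genes together. M-CSF drives cultured macrophages to divide, and inflammatory activation is known to stop them.

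Stretches upstream of the RefSeq starts of 5 of these genes are shown because they hold E2F words, which of the 3 motifs searched stood furthest above their share in all promoters. The letters searched for were TTTCCCGC, TTTCGCGC, TTTGCCGC and TTTGGCGC on both strands, in windows of 250 bases before to 50 bases after each start (RefSeq, GRCm38.p6). Capitals mark the words, and each stretch is written 5′ to 3′ on the strand of its gene and overlaps no exon of the GENCODE M21 annotation. The stretches of Cdc6 and Uhrf1 lie before a RefSeq start that is inside the gene as annotated in GENCODE, where the genes begin at 98907801 and 56303321. The other Uhrf1 window (56303087-56303386), which spans that first base, held no E2F word. In Mcm5 and in the distal stretch of Mcm6, a pair of words on opposite strands overlap.
Cdc6 (chr11:98907997-98908036, plus strand): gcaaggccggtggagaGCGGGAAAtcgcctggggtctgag
Mcm5 (chr8:75109340-75109383, plus strand): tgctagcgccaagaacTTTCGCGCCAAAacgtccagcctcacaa
Mcm6 distal (chr1:128359788-128359831, minus strand): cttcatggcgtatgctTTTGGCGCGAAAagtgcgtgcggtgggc
Mcm6 proximal (chr1:128359729-128359768, minus strand): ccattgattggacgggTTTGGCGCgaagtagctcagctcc
Pola1 (chrX:93632270-93632309, minus strand): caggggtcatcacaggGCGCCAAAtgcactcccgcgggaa
Uhrf1 (chr17:56304112-56304151, plus strand): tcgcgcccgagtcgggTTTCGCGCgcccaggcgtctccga

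Promoter windows were at hand for 37 of the 44 genes, in 43 windows. E2F words stood in 15 of the 43 windows (34.9%), against 2.26% of all 32851 windows and 3.93% of the 10342 windows of tested genes. The 15 genes were Cdc6, Cdt1, Gins3, Lig1, Mcm3, Mcm5, Mcm6, Mcm7, Orc1, Pola1, Pold1, Pold3, Pole2, Rfc3 and Uhrf1, and 5 of them held at least 2 words. The CCAAT box (CCAAT, both strands) stood in 58.1% of the windows, against 37.4% of all windows and 37.6% of those of tested genes. The CHR element (TTTGAA, both strands) stood in 11.6%, against 17.9% and 12.1%. These are letter matches and not measured binding. Windows of Gins1, Gins2, Gins4, Mcm4, Pole, Prim2 and Rfc2 were not used here.

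The values are FPKM, which corrects fragment numbers for gene length and library size, so levels of different genes can be set side by side per length. Differences were tested with limma on log2(FPKM + 1), and a gene was called differentially expressed (DEG) where its fold exceeded 1.2 and its p, adjusted over all genes tested, was below 0.05. This scale understates changes of genes with low values, so the level left is also given as a percent of the reference mean in FPKM. The depth in fragments is unknown. The labels do not say if each library is a culture or animal of its own, and p-values speak only for the spread among these 9 libraries, which may be technical. Levels of macrophage genes were high in every library (Lyz2 between 5340 and 12608 FPKM), although of 8 such markers 4 were lower in Model than in Control (Lyz2, Csf1r, Cd68 and Itgam) and 4 higher (Adgre1, Fcgr1, Mertk and Cd14), and lymphoid markers were close to absent, with a summed level of at most 0.237 FPKM, but some markers of neutrophils and stromal cells were present (Ngp between 45.4 and 72.1 FPKM, Col1a1 between 35.2 and 101 FPKM).

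Replication genes were lower in stimulated macrophages nearly as a block. In Model BMDMs, 42 of the 44 genes were DEGs with lower levels and 0 were higher, against 60.3% of all genes tested that were lower and 16.5% that were higher. Their median log2 fold change was -1.36, against -0.45 over all genes, and 41 of the 44 lay below that all-gene median. The level left in Model libraries ran from 5.80% (Rrm2) to 91.0% (Rfc3) of the Control mean, with a median of 20.9%. It was under 50% for 39 genes, under 20% for 21 and under 10% for 4, namely Rrm2, Cdc6, Dut and Pola1. All 4 reached the minimum of 1 FPKM in 3 libraries only through Control, a limit set out below. Libraries of Model and Control did not overlap for 43 of the 44 genes, against 83.8% of all genes tested.

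Summed over the 44 genes, the Model libraries held 181, 181 and 175 FPKM, against 477, 495 and 469 FPKM in the Control libraries. Without Pcna, by far the most abundant of them, the sums were between 85.2 and 89.7 FPKM in Model and between 326 and 355 FPKM in Control. Under 1 FPKM were 17 to 19 of the genes in each Model library and 0 in each Control library. Of the 44 genes, 17 reached the minimum of 1 FPKM in 3 libraries only through Control, and such genes had to be lower in Model. They were Orc1, Cdc6, Mcm10, Cdc45, Gins1, Gins3, Rfc4, Pola1, Prim1, Prim2, Pole, Pole2, Rrm2, Tyms, Dut, Chaf1a and Chaf1b. Their adjusted p-values from limma, given below for some, describe the gap between groups and do not test its direction. Of the other 27 genes, 25 were lower. The all-gene share after the same exclusion was not worked out, so this count has no like background. The 60.3% given above includes genes that passed only through Control. Under a minimum mean of 5 FPKM, 13 of the 14 genes tested were lower, against 51.9% of all 5874 then tested. Control levels still weigh in that mean. With no minimum, 42 of the 44 were lower, against 28.4% of the 29032 genes then tested. That share is not a like background. The genes added have low values, whose changes this scale understates, and the all-gene median was then -0.04.

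In bulk RNA, fewer dividing cells and less of these transcripts per cell cannot be told apart. Markers of myeloid progenitors, which also divide in marrow cultures, were at lower summed levels in Model. The 6 markers summed to between 1.19 and 1.77 FPKM in Model and between 13.9 and 18.4 FPKM in Control, and Elane, Mpo, Prtn3, Cd34 and Ctsg were tested only because their Control levels reached the minimum, so that they could only be lower in Model. Kit, a defining marker, stood near 0 in both groups, with 0.191 to 0.297 FPKM in Model and 0.152 to 0.244 FPKM in Control. Of 6 neutrophil markers, 4 were tested, of which Mmp8 and Ltf were lower and Camp higher, with sums between 79.3 and 93.8 FPKM in Model and between 131 and 150 FPKM in Control, while Ly6g, a defining marker, was at most 0.109 FPKM. Mmp8 alone averaged 11.5 ± 0.386 FPKM in Model and 59.1 ± 3.27 FPKM in Control (SD, n = 3 each). Of 6 dendritic cell markers, the 2 tested (Clec9a and Xcr1) reached the minimum only through the stimulated groups and could only be higher in Model, with sums between 12.8 and 14.5 FPKM in Model and between 0.34 and 0.75 FPKM in Control, and Flt3 and Siglech were at or near 0. Stromal marker sums overlapped, between 73.4 and 111 FPKM in Model and between 95.5 and 158 FPKM in Control. The part of these markers in the result was not tested. The scaling of libraries moved the balance over all genes. Under upper-quartile scaling the all-gene median was -0.24 and 5325 genes were lower and 2524 higher, in place of 7024 and 1925. Under quantile normalization it was -0.10, with 4209 lower and 2946 higher. Relative to the all-gene median, the median of the 44 genes was -0.91 as deposited, -0.97 under upper-quartile scaling, -0.87 under quantile normalization and -1.35 under TPM scaling. TPM scaling raises every value of these libraries, so the 1 that is added before the logarithm weighs less. With deposited FPKM, adding 0.5 or 0.1 in place of 1 gave -1.24 and -1.54, so the -1.35 is not an effect of library scaling alone.

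**Figure D1:**
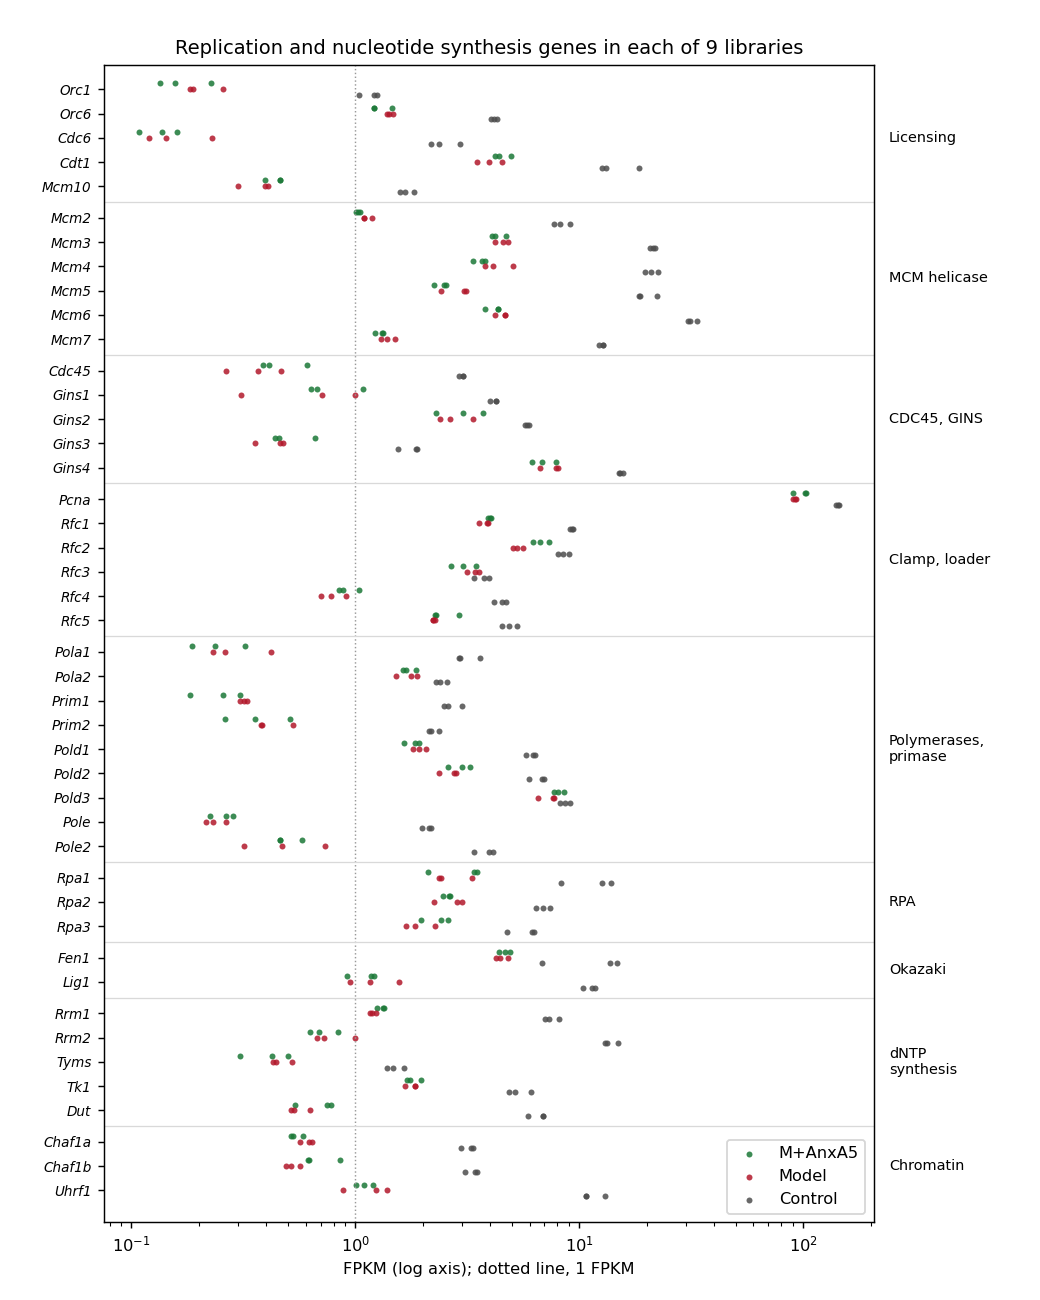
FPKM on a log axis of each of the 44 genes in each library, with 3 points per group for M+AnxA5, Model and Control, grouped by role. Model and M+AnxA5 points lie together and left of the Control points for nearly all genes, while those of Rfc3 and Pold3 lie close to Control and Pcna stands apart at the top of the scale.

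Licensing factors were lower in Model, with all 5 of them DEGs, against 60.3% of all genes tested that were lower. Orc1, Cdc6 and Mcm10 reached the minimum only through Control and could only be lower. Cdt1, which brings the MCM ring to origins, had the largest change on the test scale. It had 4.53, 3.97 and 3.49 FPKM in Model libraries, against 18.5, 13.1 and 12.7 FPKM in Control libraries. The groups were far apart, with 27.1% of the Control level left (log2 fold change -1.64, SE 0.14, limma adjusted p = 4.13e-06). Cdc6, the ATPase that works with CDT1 in this step, had 0.12, 0.23 and 0.142 FPKM in Model, against 2.18, 2.93 and 2.37 FPKM in Control. Only 6.57% of its Control level was left, the lowest share among the licensing factors (log2 fold change -1.58, SE 0.08, limma adjusted p = 1.93e-07). Orc1 and Orc6, subunits of the complex that marks origins, stood at 17.9% and 34.2% of Control, and Mcm10, which acts when the helicase starts, at 21.7%.

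The 6 subunits of the MCM2-7 helicase ring were lower together, against 60.3% of all genes tested that were lower, and within a narrow range. Between 11.1% (Mcm7) and 21.2% (Mcm3) of the Control level was left, and the log2 fold changes ran from -2.57 to -2.02. Mcm6 (chr1:128331590-128359664, minus strand, GRCm38), with the E2F words shown above, had the highest mean of the 6 over all libraries. It had 4.64, 4.67 and 4.22 FPKM in Model, against 31.4, 33.4 and 30.6 FPKM in Control (log2 fold change -2.57, SE 0.06, limma adjusted p = 1.32e-09). Mcm7 had 1.5, 1.38 and 1.3 FPKM in Model, against 12.8, 12.8 and 12.2 FPKM in Control (log2 fold change -2.5, SE 0.05, limma adjusted p = 6.63e-10). These were tight groups, with a spread far smaller than the difference. Mcm7 shares exon bases with the antisense genes Ap4m1 and Cops6, and whether fragments were counted by strand is not given in the sources used here.

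The partners that activate the helicase were also lower, but unequally. Cdc45, Gins1 and Gins3 reached the minimum only through Control and could only be lower. Cdc45 had 0.264, 0.369 and 0.468 FPKM in Model, against 3.02, 3.02 and 2.90 FPKM in Control, which left 12.3% (log2 fold change -1.54, SE 0.08, limma adjusted p = 1.48e-07). The 4 GINS subunits, which form 1 complex, kept unequal shares of their FPKM. Gins1 kept 16.2% and Gins3 24.4% of the Control level, whereas Gins2 kept 48.0% and Gins4 49.1%. Gins1 had 0.713, 0.999 and 0.307 FPKM in Model, the most scattered values of any of the 44 genes in that group (CV 51.6%), against 4.24, 4.25 and 3.98 FPKM in Control (log2 fold change -1.65, SE 0.15, limma adjusted p = 7.59e-06). Gins4, the most abundant subunit, had 8.02, 7.88 and 6.68 FPKM in Model, against 15.2, 15.0 and 15.8 FPKM in Control (log2 fold change -0.94, SE 0.09, limma adjusted p = 8.17e-06). Over all pairs of a Model with a Control library, the share left lay between 7.23% and 30.8% for Gins1 and Gins3, and between 40.1% and 58.8% for Gins2 and Gins4. On the log2(FPKM + 1) scale of the test, Gins3 (-0.95) and Gins2 (-0.85) did not stand apart from Gins4 (-0.94), so the grouping depends on the scale. Gins2 shares 2758 exon bases with the antisense gene Gse1, which stood at 2.54 ± 0.0412 FPKM in Model and 3.89 ± 0.253 FPKM in Control (SD, n = 3 each), so its value is uncertain.

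The sliding clamp and its loader were the least affected. Pcna (chr2:132249162-132253314, minus strand) had 91.6, 92.5 and 89.8 FPKM in Model, against 144, 141 and 143 FPKM in Control. It was lower in every Model library, yet 64.0% was left, and it remained far more abundant than any other of the 44 genes (log2 fold change -0.64, SE 0.05, limma adjusted p = 3.49e-06). Its processed copy Pcna-ps2 was listed at 20.6 ± 2.73 FPKM in Model and 34.4 ± 2.5 FPKM in Control (SD, n = 3 each), 59.7% of Control, and fragments may be split between these near-identical copies. The loader RFC has 5 subunits, which ranged from 17.8% (Rfc4) to 91.0% (Rfc3) of Control. Of these subunits, Rfc4 reached the minimum only through Control and could only be lower. Rfc4 had 0.906, 0.781 and 0.70 FPKM in Model, against 4.18, 4.54 and 4.70 FPKM in Control (log2 fold change -1.61, SE 0.07, limma adjusted p = 5.33e-08). Rfc1, the large subunit, had 3.58, 3.88 and 3.93 FPKM in Model, against 9.06, 9.26 and 9.37 FPKM in Control (log2 fold change -1.09, SE 0.05, limma adjusted p = 6.1e-08).

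Rfc3 was the exception among the loader subunits, and the only gene of the 44 whose Model and Control libraries overlapped. It had 3.58, 3.14 and 3.42 FPKM in Model, against 3.77, 3.98 and 3.40 FPKM in Control, and did not pass the test (log2 fold change -0.11, 95% interval -0.30 to 0.09, limma adjusted p = 0.267). Under upper-quartile scaling its log2 fold change was 0.10 and under quantile normalization 0.33 (limma adjusted p = 0.00823), so its direction depended on the scaling. Rfc2 and Rfc5 kept 62.6% and 45.8%. Rfc2 shares 952 exon bases with the antisense gene Lat2, which was more abundant (31.9 ± 5.31 FPKM in Model and 43.3 ± 4.26 FPKM in Control, SD, n = 3 each), and under quantile normalization the change of Rfc2 was too small to be called (log2 fold change -0.22).

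**Figure D2:**
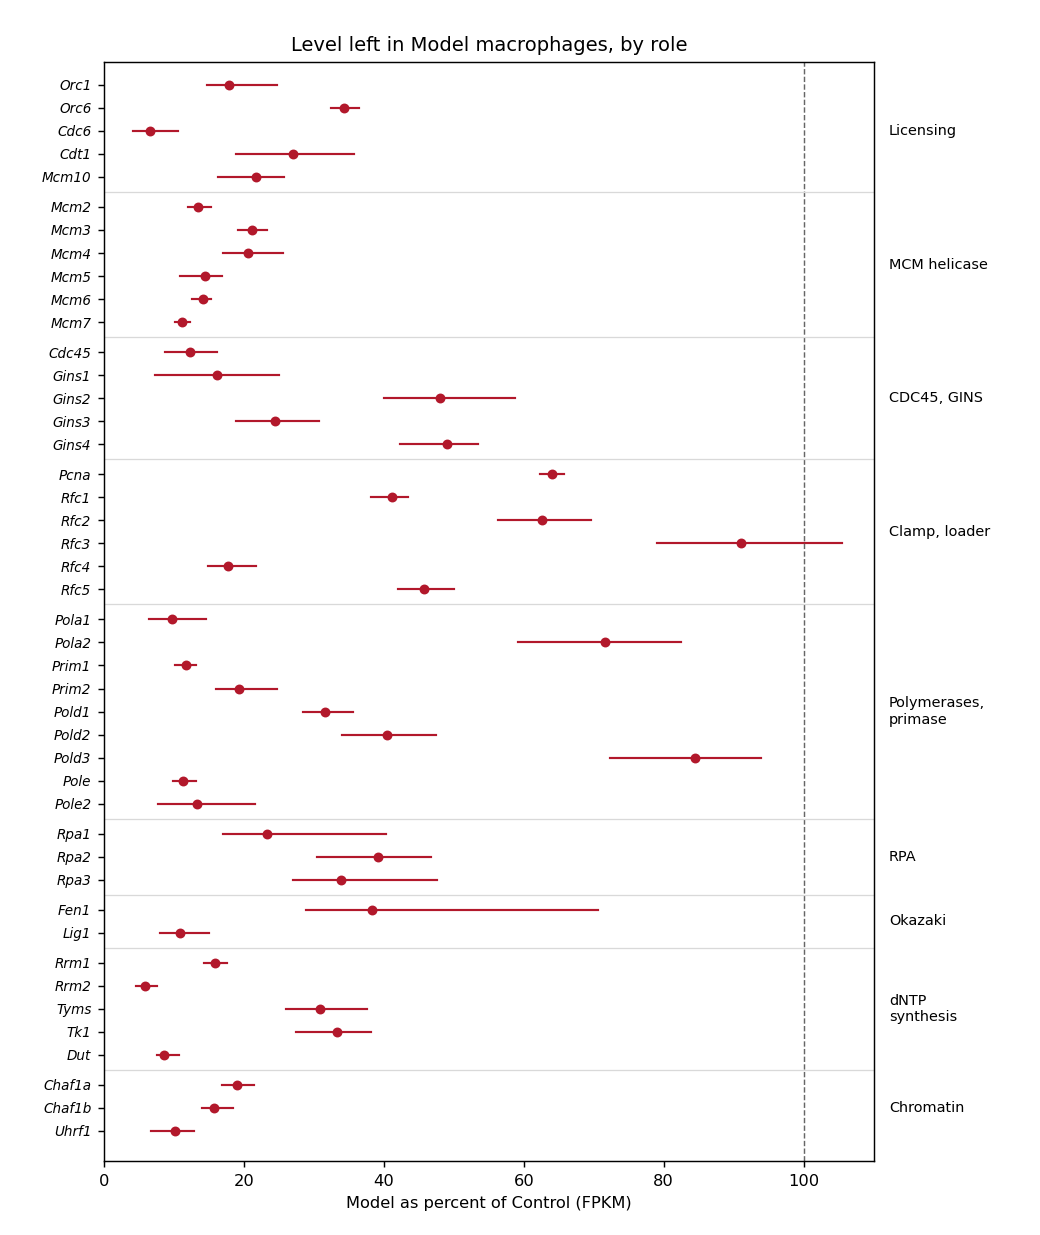
Mean FPKM in Model as a percent of the mean in Control for each of the 44 genes (points), with lines from the lowest to the highest ratio over the 9 pairs of a Model with a Control library. The MCM subunits lie together between 11.1% and 21.2%, whereas GINS, the clamp loader and the polymerases are spread widely, up to 91.0% for Rfc3.

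Of the polymerase and primase genes, 8 of 9 were lower, against 60.3% of all genes tested, with unequal shares left. Pola1, Prim1, Prim2, Pole and Pole2 reached the minimum only through Control and could only be lower. They kept the lowest shares of the 9, so this contrast follows the minimum. Pola1, the catalytic subunit of polymerase α, had 0.231, 0.421 and 0.262 FPKM in Model, against 2.90, 3.60 and 2.94 FPKM in Control, which left 9.68% (log2 fold change -1.67, SE 0.09, limma adjusted p = 1.92e-07). Its accessory subunit Pola2 kept 71.6%, with 1.89, 1.78 and 1.52 FPKM in Model, against 2.29, 2.57 and 2.39 FPKM in Control. The change of Pola2 was small and tied to the scaling, with a log2 fold change of -0.33 (limma adjusted p = 0.00212), -0.15 under upper-quartile scaling (limma adjusted p = 0.0851) and 0.15 under quantile normalization (limma adjusted p = 0.0758). The primase genes Prim1 and Prim2, which lay RNA primers, kept 11.7% and 19.3%.

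Of polymerase ε, which extends the leading strand, the 44 genes include Pole2 and the catalytic subunit Pole. Pole2 had 0.319, 0.472 and 0.732 FPKM in Model, against 3.39, 3.94 and 4.11 FPKM in Control (log2 fold change -1.68, SE 0.10, limma adjusted p = 5.5e-07), and Pole kept 11.3%. Its small subunits, which are not among the 44 genes, changed less. Pole3 averaged 8.40 ± 0.127 FPKM in Model and 13.7 ± 0.709 FPKM in Control (SD, n = 3 each; log2 fold change -0.64), and Pole4, which was not called, averaged 11.3 ± 0.155 FPKM in Model and 12.1 ± 0.565 FPKM in Control (SD, n = 3 each; log2 fold change -0.08). Of polymerase δ, which extends the lagging strand, Pold1 kept 31.6% and Pold2 40.4%. Pold4, a polymerase δ gene that is also not among the 44 genes, did not share the smaller changes of Pole3 and Pole4. It had 9.29, 8.17 and 11.1 FPKM in Model, against 33.2, 30.2 and 23.8 FPKM in Control. The log2 fold change of Pold4 was -1.51 (limma adjusted p = 4.42e-06). Pold3, an accessory subunit, was the most abundant of the 9 and changed least, with 7.61, 6.56 and 7.73 FPKM in Model, against 9.07, 8.62 and 8.24 FPKM in Control. Its libraries did not overlap and its adjusted p was below the threshold, but the change was under the fold minimum (log2 fold change -0.22, SE 0.07, limma adjusted p = 0.0161), and it was 0.13 under quantile normalization.

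RPA, the trimer that protects the opened strands, was lower in all 3 subunits, against 60.3% of all genes tested. Rpa1, the large subunit, had 2.42, 3.33 and 2.35 FPKM in Model, against 12.6, 13.9 and 8.27 FPKM in Control, where replicate 3 was low (log2 fold change -1.75, SE 0.20, limma adjusted p = 3.99e-05). Rpa3 had 2.27, 1.86 and 1.69 FPKM in Model, against 4.77, 6.25 and 6.13 FPKM in Control (log2 fold change -1.19, SE 0.12, limma adjusted p = 1.13e-05). Rpa2 kept 39.2%.

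Both genes that join Okazaki fragments, the short pieces of the lagging strand, were lower, against 60.3% of all genes tested. Lig1, the ligase that seals them, had 1.16, 1.56 and 0.944 FPKM in Model, against 11.8, 11.4 and 10.4 FPKM in Control (log2 fold change -2.47, SE 0.11, limma adjusted p = 5.05e-08). Fen1, the nuclease that trims their flaps, had 4.80, 4.45 and 4.26 FPKM in Model, against 6.80, 13.7 and 14.8 FPKM in Control. Control replicate 1 lay far below the other Control libraries, which gave Fen1 the widest relative spread of the Control group (CV 36.8%), yet above all Model libraries (log2 fold change -1.15, SE 0.23, limma adjusted p = 0.00119). Without that library the log2 fold change was -1.47.

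All 5 enzymes of dNTP synthesis were lower, against 60.3% of all genes tested, and Rrm2 had the largest change of the 44 genes. Rrm2, Dut and Tyms, however, reached the minimum only through Control. Rrm2 (chr12:24708241-24714146, plus strand), the small subunit of ribonucleotide reductase that limits its activity in S phase, had 0.674, 0.993 and 0.726 FPKM in Model, against 13.3, 15.0 and 13.0 FPKM in Control. Only 5.80% was left, between 4.50% and 7.65% over all pairs of libraries (log2 fold change -3.04, SE 0.09, limma adjusted p = 3.75e-09). Its partner Rrm1, the large subunit, kept 15.9%. Dut, the dUTPase that keeps uracil out of DNA and yields the precursor of thymidylate, had 0.630, 0.530 and 0.519 FPKM in Model, against 6.90, 6.90 and 5.91 FPKM in Control (log2 fold change -2.28, SE 0.08, limma adjusted p = 1.51e-08). Tyms, thymidylate synthase, and Tk1, the cytosolic thymidine kinase, kept 30.9% and 33.3%.

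All 3 genes that act on chromatin behind the fork were lower, against 60.3% of all genes tested. Chaf1a and Chaf1b reached the minimum only through Control and could only be lower. Uhrf1, which brings the maintenance DNA methyltransferase to newly copied DNA, had 1.38, 1.24 and 0.882 FPKM in Model, against 10.7, 13.0 and 10.7 FPKM in Control, which left 10.2% (log2 fold change -2.53, SE 0.10, limma adjusted p = 3.86e-08). Chaf1b, a subunit of the histone chaperone CAF-1, had 0.569, 0.492 and 0.516 FPKM in Model, against 3.50, 3.44 and 3.09 FPKM in Control (log2 fold change -1.51, SE 0.07, limma adjusted p = 1.1e-07). Chaf1a, the large CAF-1 subunit, kept 19.0%, though it shares 4648 exon bases with the antisense gene Ubxn6. In all, 9 of the 44 genes shared exon bases with a gene on the other strand that averaged at least 1 FPKM (Chaf1a, Cdc45, Fen1, Gins2, Mcm7, Orc6, Rfc2, Rfc4 and Rfc5), and their values are uncertain to that extent.

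E2F words stood in genes with large and with small changes. The 15 genes with a word kept a median of 14.5% of the Control level (range 6.57% to 91.0%), and the 22 without kept 27.1% (5.80% to 71.6%). Rrm2, the lowest of all, had no word in its window, whereas Rfc3 and Pold3, the 2 genes not called, held them.

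No change of these genes with AnxA5 passed the test. Between M+AnxA5 and Model, 0 of the 44 genes were lower and 0 higher by limma, against 0.815% and 1.95% of all genes tested, and 1 gene had an unadjusted p under 0.05. These all-gene shares are small and move with single libraries. They were 0.326% and 0.875% without Model replicate 2, 0.489% and 1.12% without Model replicate 3, 0.403% and 0.969% without M+AnxA5 replicate 2 and 0.30% and 0.738% without M+AnxA5 replicate 3, with 0 of the 44 genes called in each case. A count of 0 among 44 genes is therefore near the background. The log2 fold changes ran from -0.20 to 0.30 with a median of 0.00090, 21 below and 23 above 0. The 95% intervals of all 44 genes lay between -0.48 and 0.57, so changes up to that size are not excluded for the genes with the widest intervals. The libraries of both groups did not overlap for 6 genes, against 24.8% of all genes tested. Summed over the 44 genes, M+AnxA5 libraries held 178, 193 and 193 FPKM, against 181, 181 and 175 FPKM in Model libraries, and without Pcna between 87.8 and 90.8 FPKM, against 85.2 to 89.7 FPKM.

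The 6 genes with the lowest adjusted p were Rfc2, Mcm4, Chaf1b, Pcna, Pold3 and Mcm5. Rfc2 (chr5:134581366-134601805, plus strand) had 6.24, 6.71 and 7.36 FPKM in M+AnxA5, against 5.62, 5.07 and 5.29 FPKM in Model, and the libraries did not overlap (log2 fold change 0.30, 95% interval 0.14 to 0.45, limma adjusted p = 0.0581). Over its 24 alternatives this adjusted p lay between 0.0394 and 0.421, and it passed the threshold in 1 of them, a minimum mean of 5 FPKM. Lat2, the antisense gene whose exons overlap those of Rfc2, was itself a DEG, with 52.4 ± 3.69 FPKM in M+AnxA5 and 31.9 ± 5.31 FPKM in Model (SD, n = 3 each; log2 fold change 0.71, limma adjusted p = 0.0159). The part of Lat2 in the value of Rfc2 was not tested.

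Mcm4 had 3.36, 3.80 and 3.70 FPKM in M+AnxA5, against 4.11, 3.81 and 5.05 FPKM in Model, a separation of only 0.01 FPKM between the nearest libraries (log2 fold change -0.20, 95% interval -0.40 to 0.01, limma adjusted p = 0.305). All 6 MCM subunits had log2 fold changes below 0, between -0.20 and -0.05, and none passed the test. Chaf1b had 0.856, 0.621 and 0.613 FPKM in M+AnxA5, against 0.569, 0.492 and 0.516 FPKM in Model (log2 fold change 0.15, 95% interval -0.02 to 0.32, limma adjusted p = 0.346). Pcna had 90.0, 103 and 102 FPKM in M+AnxA5, against 91.6, 92.5 and 89.8 FPKM in Model (limma adjusted p = 0.370). Pold3 (limma adjusted p = 0.373) and Mcm5 (limma adjusted p = 0.414) also overlapped between the groups.

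Set beside Control, with which the Model group was compared too, the M+AnxA5 group had 42 of the 44 genes lower and 0 higher, against 61.1% of all genes tested that were lower. The median log2 fold change was -1.35, and Rrm2 was again at the low end with 5.23% of the Control level left. Rfc3 and Pold3 were again the ones not called.

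**Figure D3:**
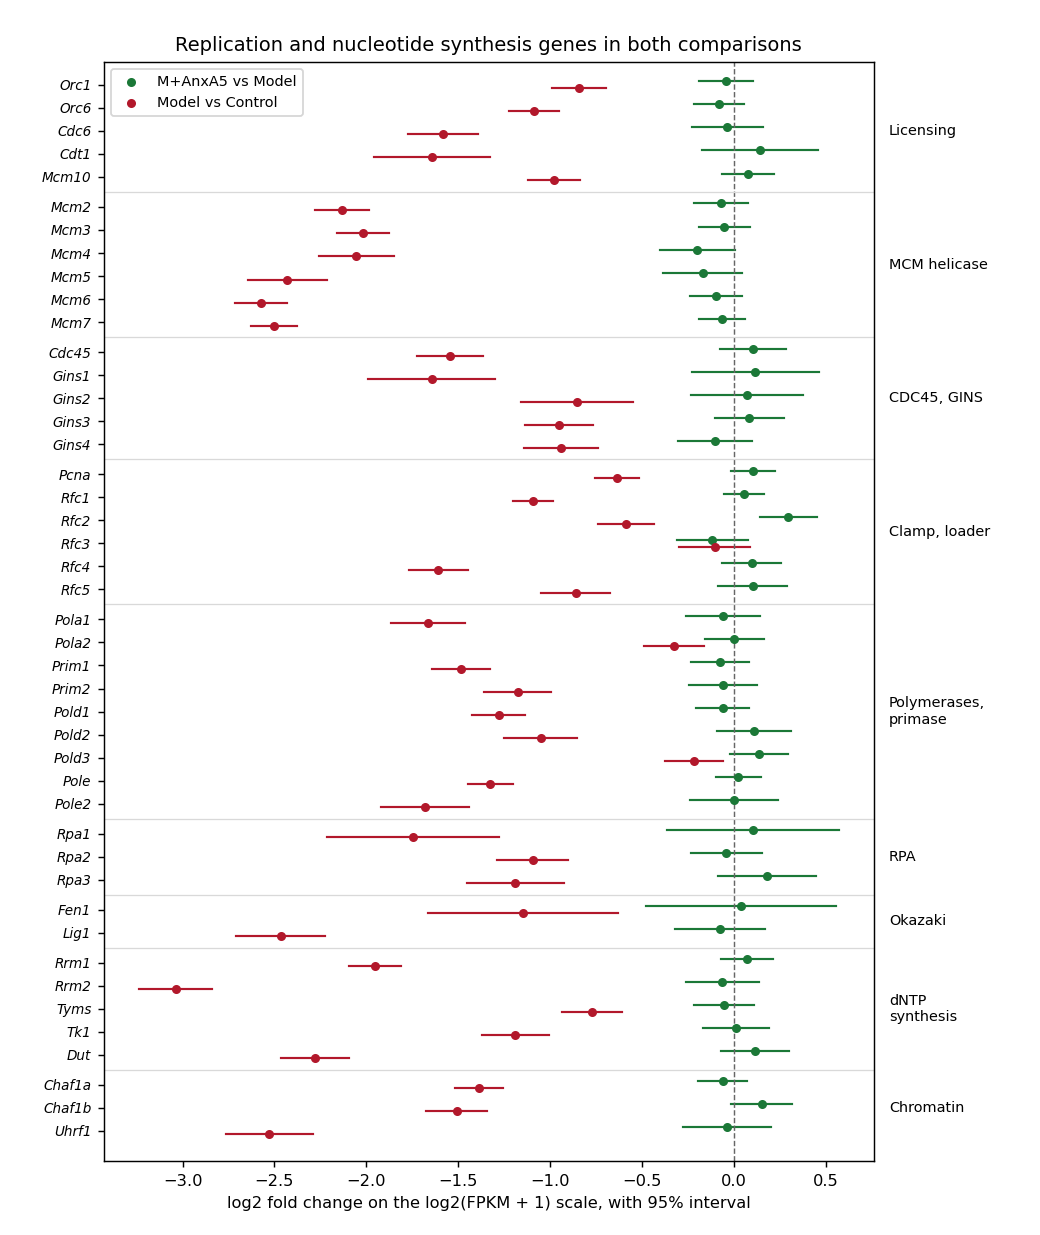
Log2 fold changes on the log2(FPKM + 1) scale with 95% intervals from limma for each of the 44 genes, M+AnxA5 vs Model (upper point of each row) and Model vs Control (lower point). The intervals of M+AnxA5 vs Model include 0 for all genes except Rfc2, while those of Model vs Control lie below 0 for all genes except Rfc3.

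The wider network of DNA synthesis was read through 8 lists of related genes, of which 138 were tested. In Model, 100 of them were lower and 20 higher, to be read against the 60.3% and 16.5% of all genes tested. Of the 138, however, 49 reached the minimum of 1 FPKM only through Control, as 17 of the 44 replication genes did, which favours a lower call. Of the other 89 related genes, 52 were lower and 20 higher. The shares of all genes include genes that passed only through Control, so they are not a like background for these 89. With no minimum, 110 of 151 related genes were lower, against 28.4% of all genes, a share diluted by genes of low values and so not a like background. The counts of the lists are therefore given as a description. In the mitosis list 18 of 19 genes were lower and 0 higher, but 17 of the 19 reached the minimum only through Control. Top2a was among these and could only be lower, whereas Mki67 was not among them. Top2a, the topoisomerase that untangles sister DNA, had 0.751, 0.835 and 0.636 FPKM in Model, against 8.23, 10.2 and 8.49 FPKM in Control (limma adjusted p = 1.16e-08). Mki67, the proliferation marker, had 1.51, 1.65 and 1.25 FPKM in Model, against 9.09, 10.7 and 9.73 FPKM in Control (limma adjusted p = 2.82e-08).

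Other replisome genes were lower in 17 of 22 cases (median -0.80) and higher in 2, against 60.3% and 16.5% of all genes. Without those that reached the minimum only through Control, 14 of 19 were lower and 2 higher. Rnaseh2c, a subunit of the enzyme that removes ribonucleotides, had 2.21, 2.16 and 2.67 FPKM in Model, against 11.7, 11.1 and 11.8 FPKM in Control. Asf1b and Asf1a, a pair of histone chaperones with similar roles, went opposite ways. Asf1b had 1.01, 1.2 and 1.08 FPKM in Model, against 6.09, 7.41 and 6.60 FPKM in Control (log2 fold change -1.87, limma adjusted p = 4.01e-08), and Asf1a had 3.84, 4.23 and 3.55 FPKM in Model, against 2.1, 2.43 and 2.15 FPKM in Control (log2 fold change 0.60, limma adjusted p = 4.19e-05). Mcmbp, which binds MCM subunits, had 26.6, 24.4 and 25 FPKM in Model, against 14.2, 15.5 and 14.8 FPKM in Control.

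Among the genes of fork protection and the replication checkpoint, 16 of 22 were lower and 4 higher. However, 13 of the 22 reached the minimum only through Control, and Clspn was among these and could only be lower. Clspn, the mediator that passes the signal to CHK1, had 0.134, 0.180 and 0.0905 FPKM in Model, against 2.92, 3.03 and 2.44 FPKM in Control (limma adjusted p = 3.7e-08), and Tipin, of the fork protection complex, had 1.8, 1.56 and 1.70 FPKM in Model, against 7.51, 9.54 and 8.55 FPKM in Control. Fanca, of the Fanconi anemia core complex, went the other way with 4.93, 4.74 and 4.97 FPKM in Model, against 1.19, 1.25 and 0.981 FPKM in Control (limma adjusted p = 3.84e-08). Atrip, the partner of the ATR kinase, had 6.88, 6.73 and 6.18 FPKM in Model, against 2.72, 4.04 and 2.11 FPKM in Control.

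Of the genes of dNTP salvage and turnover, 6 of 13 were lower and 3 higher, with a median of -0.35 near the all-gene median of -0.45 and counts near the 60.3% and 16.5% of all genes. Samhd1, the enzyme that degrades dNTPs, had 282, 272 and 288 FPKM in Model, against 30.9, 27.4 and 30.6 FPKM in Control (log2 fold change 3.20, SE 0.05, limma adjusted p = 1.32e-10). Dck, the kinase that salvages deoxycytidine and purine deoxynucleosides, had 88.9, 92.4 and 97.4 FPKM in Model, against 13.7, 17.0 and 15.3 FPKM in Control (log2 fold change 2.53, SE 0.07, limma adjusted p = 2.65e-09). In contrast, Dctpp1, which clears abnormal dCTP, had 2.22, 3.23 and 2.51 FPKM in Model, against 13.6, 14 and 14.6 FPKM in Control, and Dtymk, which phosphorylates thymidylate, 2.78, 2.67 and 2.32 FPKM in Model, against 6.55, 6.98 and 7.80 FPKM in Control. Rrm2 and Rrm1 were thus low in the same libraries in which Samhd1 and Dck were high.

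**Figure D4:**
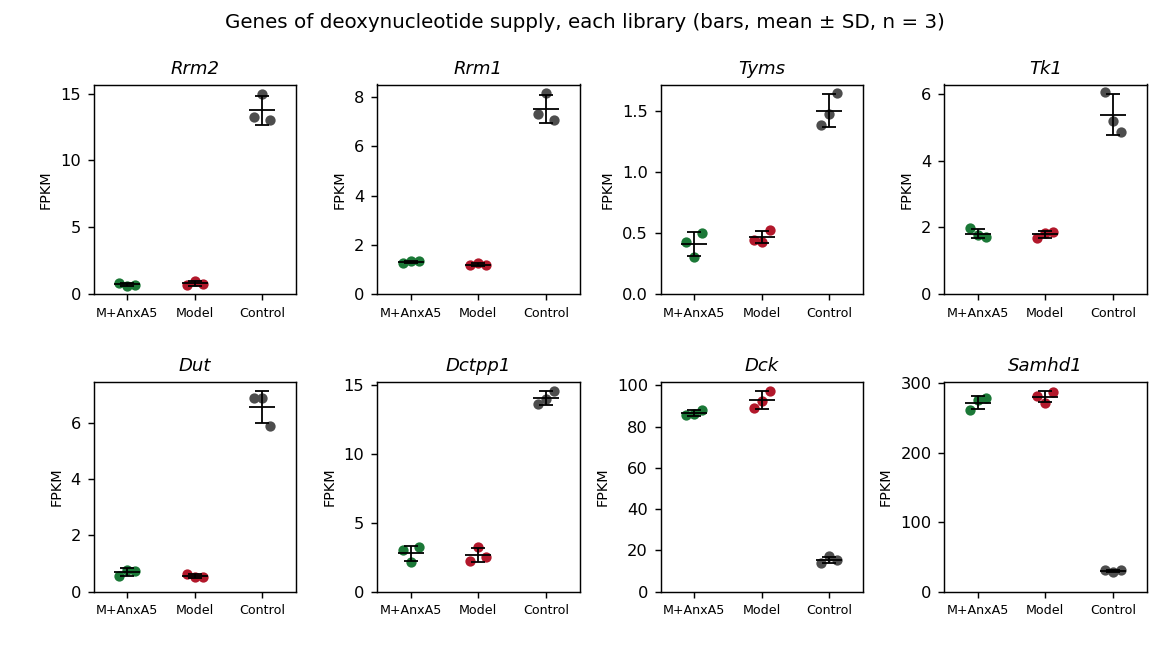
FPKM in each library (points) with mean and SD (bars, n = 3) in M+AnxA5, Model and Control for 8 genes of deoxynucleotide supply. Rrm2, Rrm1, Tyms, Tk1, Dut and Dctpp1 are low in both stimulated groups, whereas Dck and Samhd1 are high in both, with 282, 272 and 288 FPKM of Samhd1 in Model.

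Of the genes that make the ribonucleotides by de novo purine and pyrimidine synthesis, 16 of 20 were lower and 1 higher (median -1.03). The shares of all genes were 60.3% and 16.5%. Without those that reached the minimum only through Control, 14 of 18 were lower and 1 higher. Umps, which completes uridine monophosphate, had 1.77, 1.98 and 1.52 FPKM in Model, against 10.8, 11.2 and 10.6 FPKM in Control (limma adjusted p = 2.24e-08). Adss, of the branch to AMP, had 5.51, 5.48 and 5.15 FPKM in Model, against 23.1, 22.7 and 22.4 FPKM in Control.

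Folate metabolism, which supplies carbon units for purines and thymidylate, had 7 of 10 genes lower and 3 higher, against 60.3% and 16.5% of all genes, and 4 of the 10 reached the minimum only through Control. Mtr, methionine synthase, had 1.2, 1.08 and 1.27 FPKM in Model, against 7.74, 8.59 and 8.22 FPKM in Control, and Mthfd1, the cytosolic folate enzyme, 1.85, 1.65 and 1.68 FPKM in Model, against 7.82, 7.40 and 7.23 FPKM in Control. In contrast, Mthfd1l, a mitochondrial folate enzyme, had 9.76, 12.3 and 13.6 FPKM in Model, against 3.49, 4.52 and 3.55 FPKM in Control.

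Of the E2F and RB family genes, 13 of 17 were lower and 2 higher, against 60.3% and 16.5% of all genes. Of the 17, 6 reached the minimum only through Control, and E2f2 was among these and could only be lower. E2f2, an activator E2F, had 0.381, 0.341 and 0.286 FPKM in Model, against 3.51, 4.26 and 3.40 FPKM in Control (limma adjusted p = 4.85e-08). The related pocket proteins p107 (Rbl1) and p130 (Rbl2), which bind E2F factors, moved apart. Rbl1 had 22.7, 21.5 and 22.2 FPKM in Model, against 7.5, 8.73 and 7.95 FPKM in Control (log2 fold change 1.35, limma adjusted p = 1.89e-07), and Rbl2 had 2.72, 2.87 and 2.87 FPKM in Model, against 7.87, 8.53 and 8.76 FPKM in Control (log2 fold change -1.30, limma adjusted p = 6.18e-08). E2f5 had 7.02, 5.87 and 7.34 FPKM in Model, against 5.86, 5.26 and 4.36 FPKM in Control, a call (limma adjusted p = 0.0161) that was lost without Control replicate 3, Model replicate 1 or Model replicate 3, with log2 fold changes down to 0.24.

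The G1/S cyclins and inhibitors were divided, with 7 of 15 lower and 5 higher (median 0.07), against 60.3% and 16.5% of all genes. Of the 15, 3 reached the minimum only through Control. Ccna2 and Cdkn2c were among these and could only be lower. Ccna2, the S phase cyclin, had 0.329, 0.403 and 0.357 FPKM in Model, against 5.77, 6.86 and 5.75 FPKM in Control (limma adjusted p = 5.02e-09), and Cdkn2c, an inhibitor of CDK4 and CDK6, 0.136, 0.164 and 0.257 FPKM in Model, against 3.63, 4.16 and 3.79 FPKM in Control. Cdkn1a, which encodes the CDK inhibitor p21, had 161, 164 and 186 FPKM in Model, against 31.7, 38.8 and 40.4 FPKM in Control (log2 fold change 2.18, limma adjusted p = 3.54e-08). Ccnd2, a G1 cyclin, had 30.8, 28.2 and 27.6 FPKM in Model, against 3.55, 5.44 and 3.88 FPKM in Control (log2 fold change 2.51, limma adjusted p = 7.24e-08). Between M+AnxA5 and Model, 0 of the 138 related genes were lower and 0 higher by limma, against 0.815% and 1.95% of all genes, so that few calls were to be had in a list of this size.

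**Figure D5:**
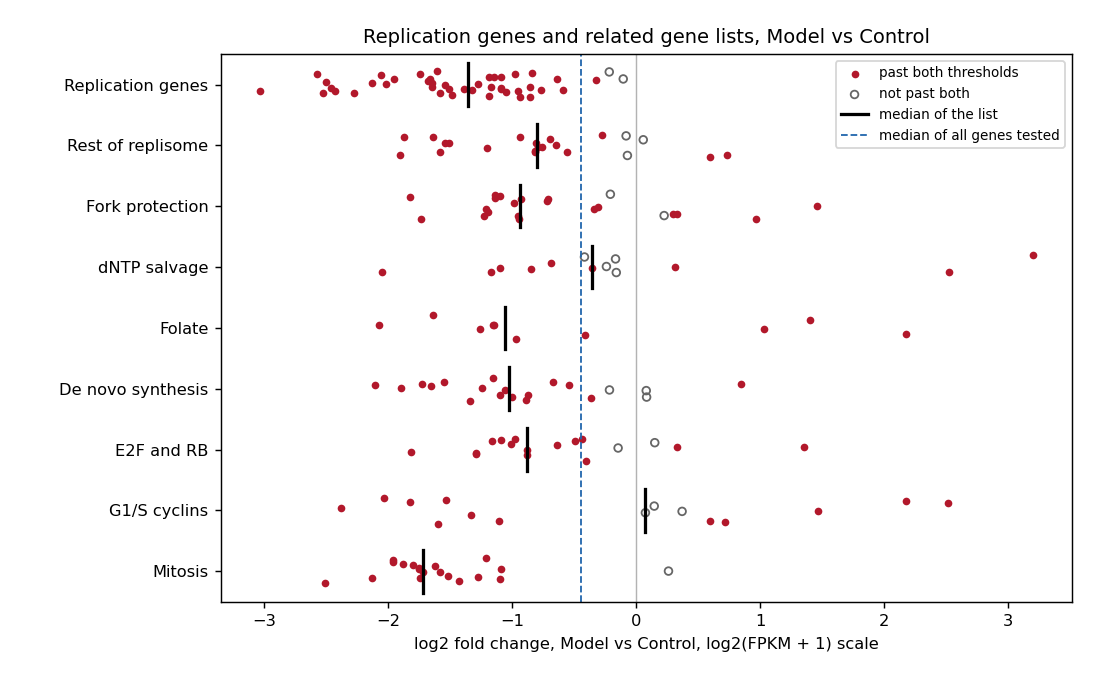
Log2 fold changes of Model vs Control on the log2(FPKM + 1) scale for the 44 replication genes and 8 related lists, with filled points for DEGs, open points for other tested genes and a bar at the median of each list. Most replication and mitosis genes, of which 17 each reached the minimum only through Control, lie below the all-gene median of -0.45, whereas salvage and G1/S genes spread to both sides of 0.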

How the data were processed

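RNA-seq of BMDMs in 3 groups of 3 libraries was used, with groups from the sample labels. The authors deposited 1 table of FPKM per gene and library, computed by the sequencing company. Per the submitters' processing notes, mm10 and the tools STAR, cutadapt 1.9, StringTie 2.1.6, edgeR and DESeq2 were used, in roles not given there. Fragment numbers cannot be read back from the deposited FPKM, since only 25.1% to 28.5% of low values of genes with 1 transcript lay within 3% of a whole step.

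Of 55335 genes, the 11657 that reached 1 FPKM in 3 or more libraries entered limma 3.58.1 (R 4.3.3) on log2(FPKM + 1) (3 groups in 1 model, empirical Bayes with trend, no replicate block) with Benjamini-Hochberg adjustment, and the steps were tested on simulated data. The fold minimum of 1.2 and the adjusted p of 0.05 are those of the study. Errors are SDs over 3 libraries. Gene coordinates and exons come from GENCODE M21 (GRCm38, the same assembly as mm10), in which all 44 genes were found, and promoters from RefSeq (GRCm38.p6).

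The genes, lists and rules were chosen with earlier results of these data known. Named by rule were, in each role, the 2 DEGs with the largest change and the most abundant gene, every gene not called, the 6 genes with the lowest adjusted p for AnxA5, and in each related list the 2 DEGs with the largest change in each direction, of which some are not reported here. Others named, such as Gins2, Gins3, Pola2, Rrm1 and Lat2, were chosen after their values were seen. Alternatives were other pseudocounts, filters, scalings, empirical Bayes settings, fold thresholds, a replicate block and leaving out each library.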

Additional observations from a re-analysis of the deposited data

How the results depend on the processing

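Each comparison was repeated under 24 alternatives, 2 of them chosen after seeing the data (leaving out the libraries numbered 2, which held the most ribosomal RNA fragments of their groups, and a TPM scaling without those fragments). For Model against Control, 40 of the 44 genes kept their call and direction in all alternatives that tested them, and Rfc2, Rfc3, Pola2 and Pold3 did not. A minimum mean of 5 FPKM tested only 14 of the genes and called 13 of them lower in each stimulated group against Control, and 25 of 50 related genes lower in Model in place of 100. Quantile normalization called 1 gene higher in Model (Rfc3, log2 fold change 0.33) and 1 higher in M+AnxA5 against Control, and it turned Pola2 to 0.15. The median log2 fold change of the genes in Model, -1.36 as reported, was -2.09 with a pseudocount of 0.1, -1.75 with 0.5, -1.70 over the 14 genes with a mean of 5 FPKM, -1.80 with TPM scaling, -1.21 with upper-quartile scaling, -0.97 with quantile normalization and -1.84 with TPM without ribosomal fragments. In M+AnxA5 against Control these medians, in the same order, were -2.15, -1.67, -1.57, -1.79, -1.18, -0.93 and -1.83. A smaller pseudocount widens the fold changes of low genes by construction, and so does TPM scaling here, which raises all values while 1 is still added.

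For M+AnxA5 against Model, a minimum mean of 5 FPKM called 1 gene higher (Rfc2), and fewer genes were tested there. Among the related genes, 1 was lower with only the 6 libraries compared and with no fold threshold, and 1 was higher with a pseudocount of 0.1. Leaving out 1 library at a time gave 42 genes lower in Model in every case, 41 to 43 lower in M+AnxA5 against Control, and 0 in either direction between M+AnxA5 and Model, with 0 to 1 related genes lower and 0 to 1 higher. With a replicate block, 42 of the genes were lower in Model and 0 changed with AnxA5 (against 0.403% of all genes lower and 1.18% higher under the block), and no call of the 44 genes changed. Equal replicate numbers were not taken as pairs, since no source says that they share a culture. The deviations of libraries with the same number correlated weakly, at 0.040 to 0.206 between Model and Control. There each Model library correlated best with its own number, although Control replicate 3 correlated best with Model replicate 1. Between M+AnxA5 and Model the values were 0.0611 to 0.123, and each library correlated best with its own number. Such pairing was not tested beyond the replicate block. Counts of fragments were not at hand, so the precision of the lowest values cannot be given.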
